A study of Mus musculus with 6 samples.

Results

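Autophagy and lysosome genes were followed in differentiating mouse muscle cells with and without lenvatinib. The set holds 44 named genes, 19 of autophagosome formation and its control and 25 of the lysosome. They were listed by gene symbol, with earlier results of these data known. The deposited table has a row for 43 of them among its 56792 gene rows, and 41 of the 14989 rows with enough counts for a test are members. Map1lc3b was not analysed here, and Gabarap and Ctsk had too few counts to be tested.

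Autophagy delivers cytoplasm, organelles and glycogen to the lysosome inside a double membrane, the autophagosome. The kinase ULK1 and a lipid kinase complex with Beclin 1 start the membrane, ubiquitin-like proteins of the ATG8 family (LC3 and GABARAP) are attached to it, and receptor proteins such as p62 tie cargo to them. The lysosome then degrades the cargo with acid hydrolases such as the cathepsins, whose genes, together with many autophagy genes, are induced by the transcription factors TFEB and TFE3. In skeletal muscle both too much and too little of this flux is known to damage fibers, and loss of the lysosomal enzyme acid alpha-glucosidase causes Pompe disease.

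C2C12 is an established mouse myoblast line, labelled wild type, whose cells fuse into myotubes when serum is lowered. Both groups had differentiated for 4 days in 2% horse serum, 3 libraries with 1 µM lenvatinib and 3 labelled lenvatinib-untreated. Lenvatinib, given by mouth against cancers, blocks receptor tyrosine kinases of the VEGF and FGF families, PDGF receptor alpha, KIT and RET. The labels name no solvent for the untreated cells, no time at which the drug was added and no separate cultures behind the replicates, so the spread behind each p-value is that of the libraries at hand and may be technical. One cell line was used, and RNA levels say nothing of autophagic flux, of protein or of enzyme activity.

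Library totals were 24566768 to 32406563 counts with lenvatinib and 25529288 to 28886472 counts without it. Levels are in CPM, the usual unit of counts scaled to the library total, after TMM scaling. The limit set by 3 counts is 0.0926 to 0.122 CPM by library and covers counting error only. Each log2 fold change sets lenvatinib over untreated and has its SE from the quasi-likelihood fit of edgeR. A gene was called where its p, adjusted by Benjamini-Hochberg across the 14989 rows, was under 0.05. The labelled cell type was checked against 13 myotube markers. All 13 were tested, at 56.1 to 6386 CPM in the group means, and 6 were higher and 3 lower with lenvatinib, Myog among the first (1036 ± 14.1 CPM with lenvatinib and 856 ± 10.2 CPM in untreated cells) and Des among the second (2949 ± 55.8 CPM with lenvatinib and 3364 ± 83.3 CPM in untreated cells). Of 9 fibroblast markers 7 were tested, 4 higher and 2 lower, and the 9 summed to 967 to 1055 CPM with lenvatinib and 879 to 921 CPM without it. Most of each sum was Col1a1, one of the 4 (615 ± 45.4 CPM with lenvatinib and 483 ± 14.3 CPM in untreated cells). Pdpn was one of the 2 lower (220 ± 8.71 CPM with lenvatinib and 263 ± 3.91 CPM in untreated cells). The part of the cell makeup in the results below was not tested.

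With lenvatinib 9 of 17 autophagy genes and 4 of 6 cathepsin genes among the members fell by small amounts. Of 8 other lysosomal hydrolases among the members 7 did not pass the test. The genes of the abundant membrane proteins Lamp1, Lamp2 and Cd63 did not pass either. Outside the members, 10 of 32 further hydrolases fell and 1 rose, 31.2% lower where 14.9% of all rows were. Among the 41 members with a test there were 17 falls, 4 rises and 20 genes that did not pass, a share called of 51.2% against 28.2% of all rows. The members that fell made up 41.5% of those tested, where 14.9% of all rows fell, and those that rose 9.76%, where 13.3% of all rows rose. The median log2 fold change of the tested members was -0.08, and that of all rows was 0.00. The CPM of the groups did not overlap in 23 of the 41, against 40.1% of all rows. Among rows with a mean of at least 5 CPM, 20 of 40 tested members and 3617 of 10842 rows were called. The shares over all rows are not matched to the members' levels. The changes were small. After Gpnmb, which had few counts, the called member with the largest change was Npc2, 1.29-fold lower. With a change of at least 1.2-fold 3 members were called, all lower (Npc2, Ctsb and Gpnmb), where 13.6% of all rows were called, 7.81% lower and 5.8% higher. All members together took 0.936 to 0.95% of a library's counts with lenvatinib and 0.986 to 1.02% without it. In cells measured in bulk, fewer cells of a type and less RNA per cell cannot be told apart.

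**Figure D1:**
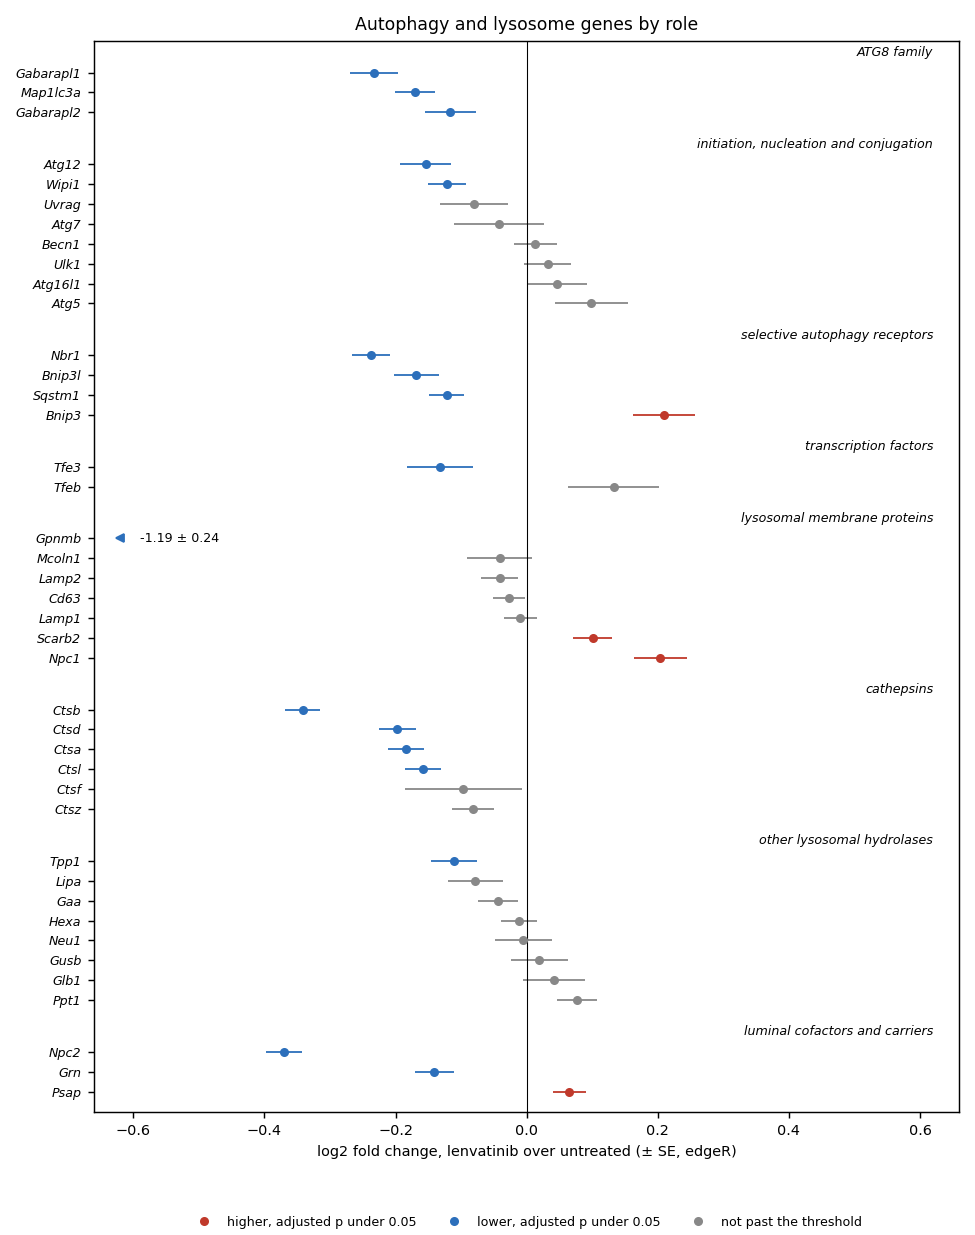
Each point is a tested member's log2 fold change of lenvatinib over untreated (x axis) with its SE as a bar, grouped by role down the page and coloured by the edgeR call. The 3 ATG8 genes and 4 cathepsins lie left of 0 in blue; Gpnmb, at -1.19 ± 0.24, lies beyond the left end and is drawn as an arrow without a bar.

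Per kilobase of the deposited feature length, member levels differed widely. Psap, the precursor of the saposins that help hydrolases reach their lipids, had the highest level (479 with lenvatinib and 458 in untreated cells, CPM per kilobase), followed by the membrane glycoprotein gene Lamp1 (353 with lenvatinib and 356 in untreated cells) and the tetraspanin gene Cd63 (278 with lenvatinib and 283 in untreated cells). Ctsd led the cathepsins (197 with lenvatinib and 226 in untreated cells), Sqstm1 the receptors (139 with lenvatinib and 151 in untreated cells) and Map1lc3a the ATG8 family (126 with lenvatinib and 142 in untreated cells). The transcription factor genes were far lower on this scale, Tfe3 at 3.87 with lenvatinib and 4.24 in untreated cells and Tfeb at 3.38 with lenvatinib and 3.09 in untreated cells. At the low end stood Gpnmb (0.134 with lenvatinib and 0.307 in untreated cells) and the rows of Gabarap and Ctsk, which are described below.

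**Figure D2:**
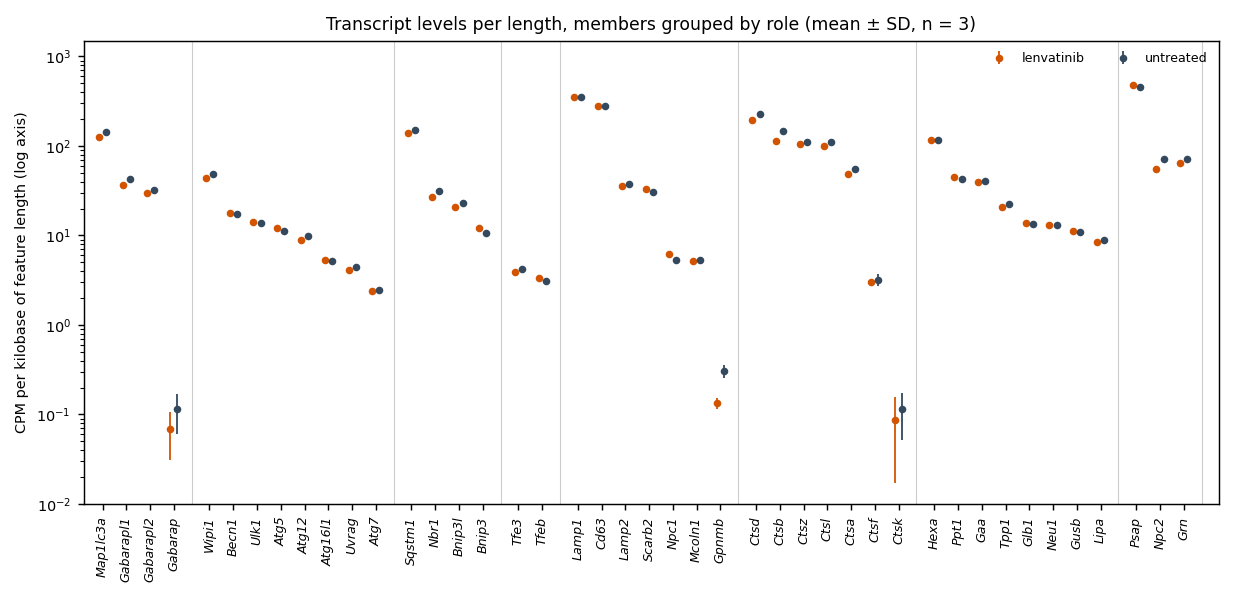
Points are group means of CPM per kilobase of feature length on a log axis, with SD over 3 libraries as bars, for the 43 members with a row, lenvatinib left of untreated. Psap, Lamp1 and Cd63 stand highest and Gabarap, Gpnmb and Ctsk lowest, and the pairs of most members lie close together on this scale.

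All 3 tested genes of the ATG8 family, whose products coat the autophagosome membrane, fell, where 14.9% of all rows did. Map1lc3a, which encodes an LC3 protein (chromosome 2, 155118217 to 155119993 in the deposited table), had 147, 147 and 152 CPM in the lenvatinib libraries, against 163, 170.05 and 169 CPM in the untreated libraries. The groups did not overlap (log2 fold change -0.17 ± 0.03, adjusted p = 2.21e-05). Gabarapl1, a GABARAP family gene known to be induced in muscle by FoxO factors, had 75.1, 71.97 and 71.8 CPM in the lenvatinib libraries, against 88.1, 82.6 and 86.3 CPM in the untreated libraries, and every lenvatinib library lay below every untreated one (log2 fold change -0.23 ± 0.04, adjusted p = 3.32e-06). Gabarapl2, which encodes GATE-16, had 70.1, 67.8 and 71.8 CPM in the lenvatinib libraries, against 73.03, 79.5 and 75.1 CPM in the untreated libraries (log2 fold change -0.12 ± 0.04, adjusted p = 0.0212). Its groups lay apart by a narrow gap, and it did not pass without the second lenvatinib library (adjusted p = 0.121), without the second untreated one (adjusted p = 0.16) or with DESeq2 (adjusted p = 0.0959). Gabarap itself had 2, 5 and 3 counts in the lenvatinib libraries, against 3, 8 and 6 counts in the untreated libraries. A row this low, in cells that express its relatives well, is not read as an absent transcript, and no fold is given. None of its transcript's 50-base words is found in transcripts of another GENCODE gene, whereas 17% of those of Gabarapl2 and 18.6% of those of Gabarapl1 are, so reads of Gabarapl1 and Gabarapl2 may be split with other rows.

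Of 8 tested genes that start and extend the autophagosome membrane, 2 fell, none rose and 6 did not pass, 25% called and thus near the 28.2% of all rows, with a median of -0.01. Of all rows 14.9% fell. Wipi1, which binds the lipid made by the Beclin 1 complex, had 198, 197 and 192 CPM in the lenvatinib libraries, against 212, 215 and 212 CPM in the untreated libraries (log2 fold change -0.12 ± 0.03, adjusted p = 0.000872). Atg12, the ubiquitin-like protein joined to ATG5, had 79.6, 76.1 and 71.9 CPM in the lenvatinib libraries, against 83.8, 81.9 and 86.95 CPM in the untreated libraries (log2 fold change -0.15 ± 0.04, adjusted p = 0.00189). In both genes the groups did not overlap. Becn1, which encodes Beclin 1, had 128, 122 and 126 CPM in the lenvatinib libraries, against 122, 127 and 124 CPM in the untreated libraries, so that the groups overlapped (log2 fold change 0.01 ± 0.03, adjusted p = 0.816), and 45.7% of the 50-base words of its transcript are shared with other genes. The starting kinase gene Ulk1 averaged 90.8 ± 2.16 CPM with lenvatinib and 88.8 ± 2.699 CPM in untreated cells (SD, n = 3 each; adjusted p = 0.565). Atg5, the partner of ATG12, averaged 34.1 ± 2.26 CPM with lenvatinib and 31.8 ± 1.47 CPM in untreated cells (adjusted p = 0.199), and Atg16l1, which places that pair on the membrane, 51.7 ± 0.7301 CPM with lenvatinib and 50.1 ± 2.77 CPM in untreated cells (adjusted p = 0.492). The Beclin 1 partner Uvrag and the E1-like enzyme gene Atg7 had log2 fold changes of -0.08 ± 0.05 and -0.04 ± 0.07 (adjusted p = 0.27 and 0.702 by edgeR). Without the third lenvatinib library the log2 fold change of Atg7 was 0.0099, and that of Becn1 was below 0 without the first lenvatinib library.

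Among the cargo receptors 3 of 4 fell and the fourth rose, where 14.9% of all rows fell and 13.3% rose. Nbr1, a receptor for ubiquitinated cargo (chromosome 11, 101442975 to 101472777), had 183, 185 and 189 CPM in the lenvatinib libraries, against 212, 222 and 222 CPM in the untreated libraries. Its lenvatinib libraries all lay below the untreated ones, and it had the smallest p of the autophagy genes (log2 fold change -0.24 ± 0.03, adjusted p = 1.76e-08, 1.18-fold lower). Sqstm1, which encodes p62, had 475, 481 and 469 CPM in the lenvatinib libraries, against 522, 525 and 506 CPM in the untreated libraries (log2 fold change -0.12 ± 0.03, adjusted p = 0.000368), again with no overlap, and shares 20.4% of its 50-base words with the neighbouring gene Mrnip. The mitophagy receptors BNIP3 and NIX share a role but their genes went opposite ways. Bnip3l, which encodes NIX, had 92.3, 89.8 and 90.9 CPM in the lenvatinib libraries, against 101, 102 and 104 CPM in the untreated libraries (log2 fold change -0.17 ± 0.03, adjusted p = 0.000131). Bnip3, a known target of hypoxia and FoxO factors, had 50.2, 51.6 and 49.03 CPM in the lenvatinib libraries, against 40.2, 45.1 and 44.9 CPM in the untreated libraries and rose (log2 fold change 0.21 ± 0.05, adjusted p = 0.000599, 1.16-fold higher), with each lenvatinib library above each untreated one. Of the 50-base words of the Bnip3 transcript 62.4% are also found in transcripts of other GENCODE genes, most of them with gene-model names, and for Bnip3l the share is 23.4%, through 1 pseudogene, so both levels are uncertain where reads are shared. Of the 2 transcription factor genes 1 passed the test. Tfe3 had 37.1, 34.9 and 35.7 CPM in the lenvatinib libraries, against 38.1, 40.9 and 39.1 CPM in the untreated libraries (log2 fold change -0.13 ± 0.05, adjusted p = 0.0434). Tfeb had 17.9, 19.3 and 20.2 CPM in the lenvatinib libraries, against 18.7, 16.9 and 16.97 CPM in the untreated libraries (log2 fold change 0.13 ± 0.07, adjusted p = 0.164), and its groups overlapped. The fall of Tfe3 was close to the threshold and did not pass with 4 of the 6 single libraries left out, lenvatinib library 2 or 3 (adjusted p = 0.147 and 0.105) or the second or the third untreated one (adjusted p = 0.177 and 0.0775), nor with DESeq2 (adjusted p = 0.161), with upper quartile scaling (adjusted p = 0.0595), with library totals alone (adjusted p = 0.0503) or without a filter on low counts (adjusted p = 0.0778).

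**Figure D3:**
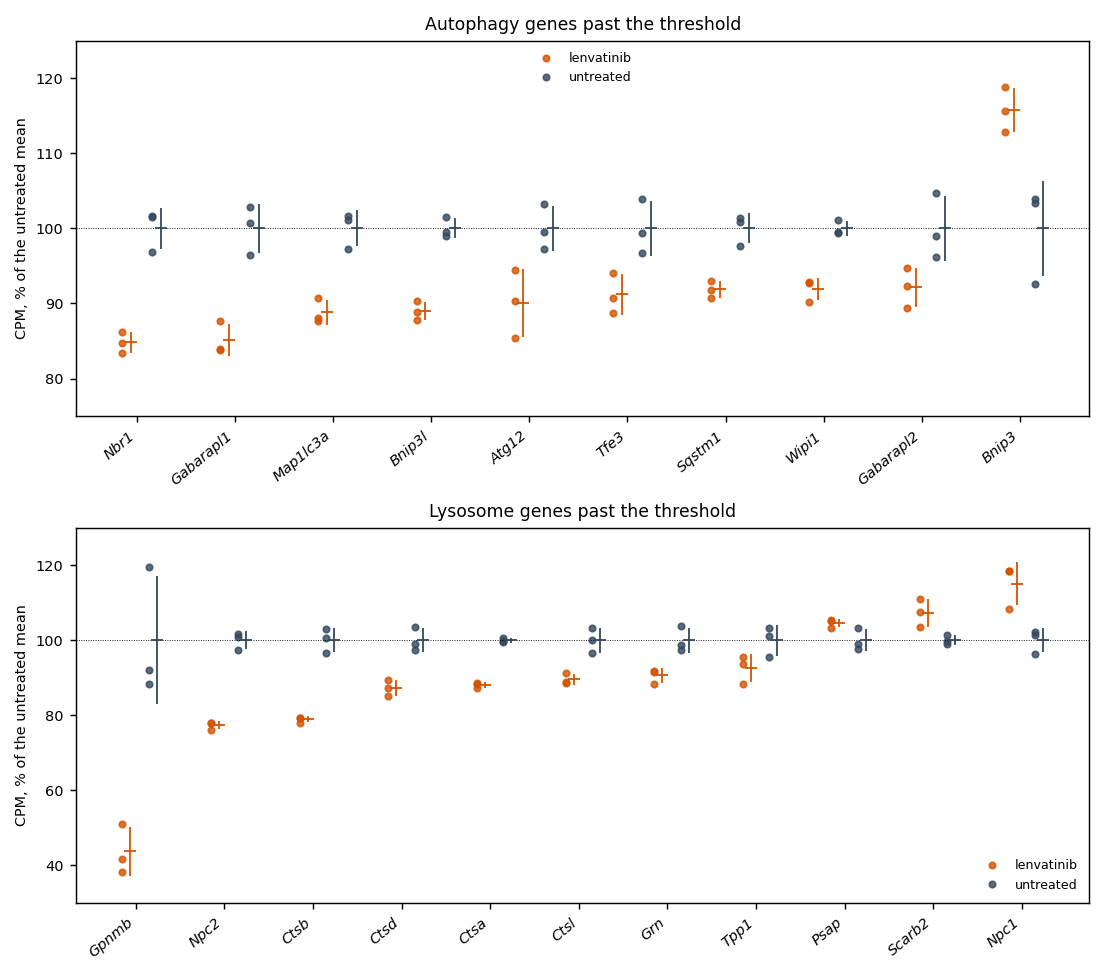
Each dot is 1 library's CPM as a percentage of the untreated mean of that gene (y axis, not starting at 0), with the group mean and SD beside it, for the called autophagy genes (top) and lysosome genes (bottom), lenvatinib left of untreated. The dots of the 2 groups are apart in every gene shown but Tpp1, and Gpnmb lies farthest below its untreated mean.

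The cathepsins, the proteases of the lysosome, fell in 4 of 6 tested genes, none rose, and the median was -0.17. That is 66.7% lower, where 14.9% of all rows were. Ctsb, a cysteine protease (chromosome 14, 63359911 to 63383372), had 698, 699 and 686 CPM in the lenvatinib libraries, against 849.6, 906 and 885 CPM in the untreated libraries (log2 fold change -0.34 ± 0.03, adjusted p = 7.19e-14, 1.27-fold lower). The lowest untreated library stood well above the highest lenvatinib library, and of these 4 genes it changed most. Ctsd, the main aspartic protease, had 476, 464 and 453 CPM in the lenvatinib libraries, against 518, 551 and 527 CPM in the untreated libraries (log2 fold change -0.20 ± 0.03, adjusted p = 3.54e-07). Ctsa, a serine carboxypeptidase that also stabilises neuraminidase and beta-galactosidase, had 229, 233 and 232 CPM in the lenvatinib libraries, against 262, 265 and 262 CPM in the untreated libraries (log2 fold change -0.18 ± 0.03, adjusted p = 9.12e-07). Ctsl, which also trims itself and other enzymes, had 662, 642 and 644 CPM in the lenvatinib libraries, against 699, 726 and 749 CPM in the untreated libraries (log2 fold change -0.16 ± 0.03, adjusted p = 1.13e-05). In all 4 genes the groups did not overlap. Ctsz, a carboxypeptidase, had 152, 149.8 and 155 CPM in the lenvatinib libraries, against 156, 169 and 159 CPM in the untreated libraries, also without overlap but just over the threshold (log2 fold change -0.08 ± 0.03, adjusted p = 0.0507), and it passed without the first untreated library (adjusted p = 0.0228) and also when lenvatinib library 3 was left out (adjusted p = 0.0493). Ctsf averaged 15.1 ± 1.39 CPM with lenvatinib and 16.2 ± 2.31 CPM in untreated cells (SD, n = 3 each; adjusted p = 0.469), and its log2 fold change was 0.016 without the second untreated library. Ctsk, the osteoclast collagenase, had 6, 3 and 1 counts in the lenvatinib libraries, against 7, 2 and 5 counts in the untreated libraries, around the floor of 3 counts per library in both groups.

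Some of these rows overlap a neighbour on the opposite strand, and whether reads were counted by strand is not stated in the labels. The span of Ctsa overlaps that of Pltp over 18.6% of its length, and Pltp also fell (-0.28 ± 0.03, adjusted p = 3.52e-09). Grn overlaps Fam171a2 over 1.01%, and that gene fell as well (-0.18 ± 0.03, adjusted p = 1.15e-06). Ctsb overlaps Fdft1 over 3.3%, and Fdft1 did not pass (-0.03 ± 0.03, adjusted p = 0.444). Smaller overlaps, of 2.07% of the span or less, join Npc1 with Rmc1, Ppt1 with Cap1 and Ctsz with Nelfcd. Of the 50-base words of the member's transcript, other GENCODE genes share 36.6% for Ctsd, 28.1% for Ctsl, 15.8% for Ctsa and 15.4% for Ctsb. The part of shared reads in these values was not tested.

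Among the members the other lysosomal hydrolases, which act mainly on sugars and lipids, had 1 call. Of 8 tested, 1 fell, none rose and 7 did not pass, with a median of -0.01. The share lower was 12.5%, near the 14.9% of all rows. The member that fell was Tpp1, a tripeptidyl peptidase, with 104, 112 and 109.7 CPM in the lenvatinib libraries, against 112, 118 and 121 CPM in the untreated libraries (log2 fold change -0.11 ± 0.04, adjusted p = 0.0153). Its highest lenvatinib library lay above its lowest untreated one, and it did not pass without the first lenvatinib library (adjusted p = 0.13), without the third untreated one (adjusted p = 0.115) or with DESeq2 (adjusted p = 0.0646). Gaa, the acid alpha-glucosidase that degrades glycogen and is deficient in Pompe disease, had 184, 196 and 191 CPM in the lenvatinib libraries, against 191, 202 and 196 CPM in the untreated libraries (log2 fold change -0.04 ± 0.03, adjusted p = 0.308), and its groups overlapped. Hexa, the alpha subunit of beta-hexosaminidase, had 231, 236 and 232 CPM in the lenvatinib libraries, against 230.3, 239 and 235 CPM in the untreated libraries (log2 fold change -0.01 ± 0.03, adjusted p = 0.806). Ppt1, which removes palmitate from proteins, had 169, 171 and 162 CPM in the lenvatinib libraries, against 155, 161 and 160.5 CPM in the untreated libraries, all 3 lenvatinib libraries above the untreated ones but just over the threshold (log2 fold change 0.08 ± 0.03, adjusted p = 0.0586); without the third lenvatinib library it passed (adjusted p = 0.0287). The neuraminidase gene Neu1 averaged 48.8 ± 0.913 CPM with lenvatinib and 48.99 ± 0.3198 CPM in untreated cells, the beta-glucuronidase gene Gusb 50.8 ± 1.04 CPM with lenvatinib and 50.2 ± 1.07 CPM in untreated cells, the beta-galactosidase gene Glb1 41.9 ± 0.342 CPM with lenvatinib and 40.7 ± 0.952 CPM in untreated cells and the acid lipase gene Lipa 57.8 ± 2.38 CPM with lenvatinib and 60.9 ± 1.74 CPM in untreated cells (SD, n = 3 each; adjusted p = 0.95, 0.795, 0.568 and 0.169 by edgeR).

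The 3 luminal helper proteins all passed the test, where 28.2% of all rows did. Npc2 carries cholesterol from degraded lipids to the membrane protein NPC1, and it had the smallest p of all members. Its transcript (chromosome 12, 84801336 to 84819926) had 304, 304 and 297 CPM in the lenvatinib libraries, against 396, 393 and 379 CPM in the untreated libraries, with every lenvatinib library below every untreated one (log2 fold change -0.37 ± 0.03, adjusted p = 1.96e-14, 1.29-fold lower). Grn, which encodes progranulin, had 226, 217 and 225 CPM in the lenvatinib libraries, against 242, 255 and 239 CPM in the untreated libraries (log2 fold change -0.14 ± 0.03, adjusted p = 0.000209). Psap had 1303, 1326 and 1327 CPM in the lenvatinib libraries, against 1248, 1301 and 1232 CPM in the untreated libraries and was slightly higher (log2 fold change 0.07 ± 0.02, adjusted p = 0.0462). This small rise did not pass without lenvatinib library 2 or 3 (adjusted p = 0.129 and 0.131) or without the first or the third untreated one (adjusted p = 0.134 and 0.206), nor among rows of at least 5 CPM (adjusted p = 0.0608).

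Among 7 lysosomal membrane proteins 2 rose, 1 fell and 4 did not pass, 42.9% called where 28.2% of all rows were. Npc1, which takes cholesterol over from NPC2 and exports it from the lysosome, had 71.96, 78.7 and 78.6 CPM in the lenvatinib libraries, against 67.9, 63.96 and 67.3 CPM in the untreated libraries and rose (log2 fold change 0.20 ± 0.04, adjusted p = 9.6e-05), so that the 2 partner genes of cholesterol export passed the test in opposite directions. Scarb2, the receptor LIMP-2 that brings beta-glucocerebrosidase to the lysosome, had 214, 207 and 199 CPM in the lenvatinib libraries, against 190.3, 195 and 192 CPM in the untreated libraries (log2 fold change 0.10 ± 0.03, adjusted p = 0.00841). Without the first lenvatinib library Scarb2 did not pass (adjusted p = 0.0764). The abundant glycoproteins of the membrane showed no difference past the test. Lamp1 had 979, 992 and 972 CPM in the lenvatinib libraries, against 974, 1005 and 983 CPM in the untreated libraries (log2 fold change -0.01 ± 0.02, adjusted p = 0.823), and Lamp2, needed for fusion with autophagosomes, had 369, 349 and 349 CPM in the lenvatinib libraries, against 367, 364 and 367 CPM in the untreated libraries (log2 fold change -0.04 ± 0.03, adjusted p = 0.289). Cd63 had 1025, 1015 and 1027 CPM in the lenvatinib libraries, against 1046, 1048 and 1031 CPM in the untreated libraries, lower in each lenvatinib library by a small margin (log2 fold change -0.03 ± 0.02, adjusted p = 0.465). The calcium channel gene Mcoln1 averaged 38.7 ± 1.16 CPM with lenvatinib and 39.7 ± 1.98 CPM in untreated cells (SD, n = 3 each; adjusted p = 0.597).

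Gpnmb, a glycoprotein known from macrophages, osteoclasts and melanocytes, was the member with the largest fold change and one of the rarest. It had 19, 25 and 27 counts in the lenvatinib libraries, against 47, 61 and 53 counts in the untreated libraries, or 0.768, 1.02 and 0.834 CPM in the lenvatinib libraries, against 1.77, 2.39 and 1.84 CPM in the untreated libraries (log2 fold change -1.19 ± 0.24, adjusted p = 0.00014, 2.28-fold lower), and the groups did not overlap. The 16 macrophage markers summed to 6.09 to 7.04 CPM with lenvatinib and 14.3 to 15.95 CPM without it. Of them 5 were tested and 2 fell, Cd53 (0.388 ± 0.0576 CPM with lenvatinib and 7.65 ± 1.28 CPM in untreated cells) and Cd14 (3.52 ± 0.243 CPM with lenvatinib and 5.12 ± 0.0901 CPM in untreated cells), while Adgre1, Tyrobp, C1qa, C1qb and C1qc were at 0 in all 6 libraries. The difference between the sums lay mostly in Cd53. Lyz2, Itgam and Mrc1 did not pass, with log2 fold changes of 0.47 ± 0.28, 0.10 ± 0.48 and -0.29 ± 0.41 (adjusted p = 0.223, 0.909 and 0.651 by edgeR). The 9 osteoclast markers summed to 39.9 to 40.8 CPM with lenvatinib and 51.3 to 54.8 CPM without it. Of 3 tested, Itgb3 and the proton pump subunit gene Atp6v0d2 (0.689 ± 0.286 CPM with lenvatinib and 4.32 ± 0.672 CPM in untreated cells) fell and Nfatc1 rose, and Calcr was at 0 in all libraries. Most of the sums lay in Itgb3 (22.6 ± 0.639 CPM with lenvatinib and 34.3 ± 1.26 CPM in untreated cells) and Nfatc1 (16.6 ± 0.204 CPM with lenvatinib and 14.4 ± 0.303 CPM in untreated cells). None of the 6 melanocyte markers had enough counts for a test, and Tyr, Tyrp1, Dct and Sox10 were at 0 in all libraries. The part of other cell types in the fall of Gpnmb was not tested.

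TFEB and TFE3 are known to bind E-box sequences with the core CACGTG near the start of lysosomal genes. Promoter windows from RefSeq (build GRCm38.p6, 250 bases before to 50 after the start) were matched to 36 of the 43 members and searched on both strands for CACGTG and for the longer forms TCACGTG and TCACGTGA, each of which contains the shorter ones. The core was in the window of 11 of 36 members (30.6%), in 8.09% of all genes with a window and in 11.7% of the genes tested here. By direction it was in 3 of 13 members that fell, 1 of 3 that rose and 7 of 18 that did not pass. Among lysosome members alone it was in 3 of 7 that fell and 5 of 13 that did not pass. Among autophagy members it was in 0 of 6 that fell and 2 of 5 that did not pass. TCACGTGA was in 3 members, Ctsa and Ctsd, which fell, and Mcoln1, which did not pass, and in 1.12% of all genes and 2.23% of the genes tested. TCACGTG was in 7 members (19.4%) in 4.29% of all genes and in 6.85% of the genes tested. A match describes letters only and is not a binding site.

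The windows of these 3 genes are printed first, followed by those of Npc2, the member with the smallest p, and Bnip3, the member with the largest rise. Of the 2 Ctsa windows only that with TCACGTGA is shown. Capitals mark each TCACGTGA, and each CACGTG outside one. Their coordinates are those of GRCm38.p6 and cannot be set beside the deposited positions given above. They lie at chr7:142387778-142388077, minus strand (Ctsd), chr2:164833523-164833822, plus strand (Ctsa), chr8:3500269-3500568, plus strand (Mcoln1), chr12:84773063-84773362, minus strand (Npc2) and chr7:138909457-138909756, minus strand (Bnip3).
Ctsd: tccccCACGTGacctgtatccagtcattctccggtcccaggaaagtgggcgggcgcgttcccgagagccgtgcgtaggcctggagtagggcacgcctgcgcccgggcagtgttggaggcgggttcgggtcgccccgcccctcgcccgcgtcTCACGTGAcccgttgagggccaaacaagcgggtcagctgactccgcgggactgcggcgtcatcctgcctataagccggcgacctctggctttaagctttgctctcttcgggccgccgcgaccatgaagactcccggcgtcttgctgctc
Ctsa: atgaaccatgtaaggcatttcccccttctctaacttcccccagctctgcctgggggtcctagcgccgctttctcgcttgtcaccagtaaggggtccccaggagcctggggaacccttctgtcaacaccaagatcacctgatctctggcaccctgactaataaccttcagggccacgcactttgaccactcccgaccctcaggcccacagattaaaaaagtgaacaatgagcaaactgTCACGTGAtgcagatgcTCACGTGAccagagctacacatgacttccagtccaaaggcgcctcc
Mcoln1: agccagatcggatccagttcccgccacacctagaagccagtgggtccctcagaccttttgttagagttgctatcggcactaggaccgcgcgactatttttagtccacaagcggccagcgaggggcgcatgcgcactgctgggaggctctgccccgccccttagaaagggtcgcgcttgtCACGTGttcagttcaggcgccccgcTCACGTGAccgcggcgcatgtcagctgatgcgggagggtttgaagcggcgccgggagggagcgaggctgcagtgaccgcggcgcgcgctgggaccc
Npc2: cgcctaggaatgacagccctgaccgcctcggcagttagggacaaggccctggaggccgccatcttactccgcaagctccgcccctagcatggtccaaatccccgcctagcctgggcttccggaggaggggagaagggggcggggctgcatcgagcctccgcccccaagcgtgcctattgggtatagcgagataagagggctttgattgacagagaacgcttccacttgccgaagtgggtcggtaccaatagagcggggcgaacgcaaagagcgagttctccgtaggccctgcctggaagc
Bnip3: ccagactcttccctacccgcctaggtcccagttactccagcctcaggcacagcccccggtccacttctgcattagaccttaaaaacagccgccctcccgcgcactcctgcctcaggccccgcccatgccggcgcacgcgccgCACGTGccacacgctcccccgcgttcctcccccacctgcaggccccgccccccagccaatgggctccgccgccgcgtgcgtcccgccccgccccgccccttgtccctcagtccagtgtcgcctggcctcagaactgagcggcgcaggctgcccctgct
In Ctsd the palindrome starts 99 bases before the transcription start and in Mcoln1 46 bases before it. In the Ctsa window shown, the palindrome starts once 13 bases before that window's transcription start and once after it. The Npc2 window holds no CACGTG, and the Bnip3 window holds 1 with other flanks.

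Further genes of the pathway were counted in 10 lists, drawn up by function with earlier results of these data known. Of 182 tested, 43 fell, 21 rose and 118 did not pass, a share called of 35.2% beside the 28.2% of all rows. The median log2 fold change was -0.04. With a change of at least 1.2-fold 14 of the 182 fell and 5 rose, where 7.81% of all rows fell and 5.8% rose by that much, so these counts are no higher than the background.

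**Figure D4:**
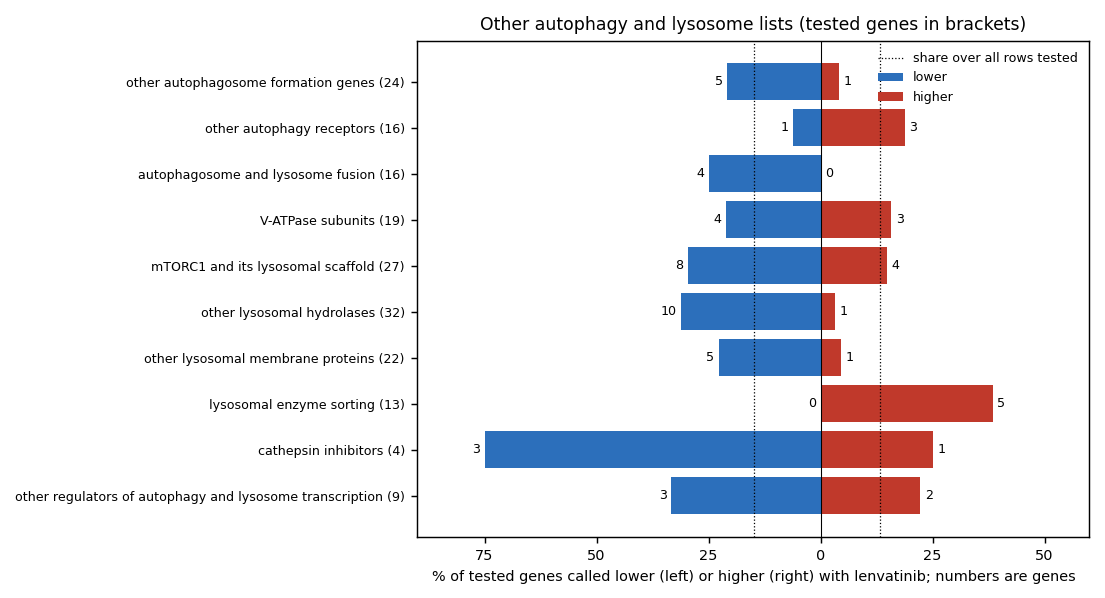
Bars give the percentage of tested genes in each list called lower (left, blue) or higher (right, red) with lenvatinib, with the number of genes at each end and dotted lines at the shares over all rows, 14.9% and 13.3%. The sorting list holds only rises, 5 of 13, and the fusion list only falls, 4 of 16.

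Of 24 further genes of autophagosome formation 5 fell, 1 rose and 18 did not pass, a share called of 25%, near the 28.2% of all rows, with the smallest p in Nrbf2, a cofactor of the Beclin 1 complex (-0.24 ± 0.06, adjusted p = 0.000872), the membrane scramblase gene Vmp1 (-0.14 ± 0.03, adjusted p = 0.001) and Wipi2 (-0.14 ± 0.04, adjusted p = 0.00455). The one that rose was Rubcn, which encodes the autophagy inhibitor Rubicon (0.11 ± 0.04, adjusted p = 0.0218), named after its value was seen. It did not pass without lenvatinib library 2 or 3 (adjusted p = 0.068 and 0.0899) or the first or the third untreated one (adjusted p = 0.0577 and 0.0741), nor with DESeq2 (adjusted p = 0.0796). Of 16 fusion and transport genes 4 fell and 12 did not pass, also 25% called. Falls thus made up 25%, where 14.9% of all rows fell. Vps11, of the tethering complexes, fell (-0.19 ± 0.04, adjusted p = 0.000883), as did the tether gene Epg5 (-0.17 ± 0.04, adjusted p = 0.00239) and Arl8b, a GTPase that moves lysosomes along microtubules (-0.11 ± 0.03, adjusted p = 0.0153). Without the third lenvatinib library 2 genes of this list were called, and Arl8b was not among them (adjusted p = 0.152), nor without the third untreated one (adjusted p = 0.0959). With DESeq2 2 genes of the list were called, and Arl8b did not pass (adjusted p = 0.0654).

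Of 16 receptors outside the members 1 fell, 3 rose and 12 did not pass, 25% called and thus near the 28.2% of all rows. Calcoco1, a receptor for the endoplasmic reticulum, averaged 185 ± 5.02 CPM with lenvatinib and 227 ± 3.13 CPM in untreated cells (log2 fold change -0.30 ± 0.03, adjusted p = 6.87e-11; SD, n = 3 each). Stbd1, which binds glycogen and links it to the ATG8 family, averaged 51.9 ± 0.5903 CPM with lenvatinib and 37.2 ± 2.64 CPM in untreated cells and rose (log2 fold change 0.48 ± 0.05, adjusted p = 1.18e-10). Rtn3, a receptor in tubules of the endoplasmic reticulum, rose by 0.15 on the log2 scale (adjusted p = 0.000285).

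Of 32 further lysosomal hydrolases 10 fell, 1 rose and 21 did not pass, 31.2% lower where 14.9% of all rows were. In either direction 34.4% were called, beside the 28.2% of all rows. Dnase2a, the acid DNase, averaged 40.2 ± 1.31 CPM with lenvatinib and 53.9 ± 0.306 CPM in untreated cells (log2 fold change -0.42 ± 0.04, adjusted p = 4.24e-10; SD, n = 3 each). Arsa, the sulfatase deficient in metachromatic leukodystrophy, averaged 32.8 ± 1.17 CPM with lenvatinib and 42.9 ± 1.71 CPM in untreated cells (log2 fold change -0.39 ± 0.05, adjusted p = 6.01e-08). Naglu, which degrades heparan sulfate, averaged 26.5 ± 0.423 CPM with lenvatinib and 35.3 ± 0.827 CPM in untreated cells (log2 fold change -0.41 ± 0.05, adjusted p = 6.01e-08). The largest falls of the list were in 2 further cathepsin genes at low levels, Ctsh (5.101 ± 0.0695 CPM with lenvatinib and 8.94 ± 0.372 CPM in untreated cells; log2 fold change -0.81 ± 0.11, adjusted p = 7.71e-08) and Ctsc (1.78 ± 0.456 CPM with lenvatinib and 2.79 ± 0.172 CPM in untreated cells; log2 fold change -0.64 ± 0.19, adjusted p = 0.00988). Ctsc did not pass without the first lenvatinib library (-0.45, adjusted p = 0.0949) or with DESeq2 (adjusted p = 0.0699). The gene that rose was Man2b1, an alpha-mannosidase (0.18 ± 0.04, adjusted p = 0.000953). These 3 genes are named after their values were seen. Of 22 further membrane proteins 5 fell, 1 rose and 16 did not pass, 27.3% called and near the background. Tmem106b fell (-0.32 ± 0.03, adjusted p = 8.36e-11), as did Cln3 (-0.68 ± 0.16, adjusted p = 0.000722; 2.401 ± 0.268 CPM with lenvatinib and 3.85 ± 0.206 CPM in untreated cells) and Laptm4b (-0.17 ± 0.04, adjusted p = 0.00197).

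Of 4 tested genes of endogenous cathepsin inhibitors, 3 fell and 1 rose, where 14.9% of all rows fell and 13.3% rose. Cst3, which encodes the secreted inhibitor cystatin C, averaged 284 ± 1.88 CPM with lenvatinib and 369 ± 14.7 CPM in untreated cells (log2 fold change -0.38 ± 0.03, adjusted p = 3.91e-14; SD, n = 3 each). Cstb, the cytosolic cystatin B, fell by 0.24 (adjusted p = 1.13e-05), and the serpin gene Serpinb6a by 0.27 on the log2 scale (adjusted p = 1.26e-10). The row that rose, Cst6 (0.22 ± 0.07, adjusted p = 0.0197), is wider than its gene in the deposited table and may hold other reads. It did not pass without the third lenvatinib library (adjusted p = 0.258), nor when untreated library 3 was left out (adjusted p = 0.144) or with DESeq2 (adjusted p = 0.111).

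Genes that deliver new enzymes to the lysosome were the one list with rises only. Of 13 tested, 5 rose (38.5%, where 13.3% of all rows rose), none fell and 8 did not pass, with a median of 0.02. Of all rows 28.2% were called in either direction. Sort1, which encodes the sorting receptor sortilin, averaged 90.1 ± 2.81 CPM with lenvatinib and 71.3 ± 1.88 CPM in untreated cells (log2 fold change 0.34 ± 0.04, adjusted p = 1.19e-09; SD, n = 3 each). Igf2r, the large receptor for mannose 6-phosphate, averaged 270.5 ± 16.4 CPM with lenvatinib and 236 ± 4.29 CPM in untreated cells (log2 fold change 0.20 ± 0.03, adjusted p = 4.06e-05). Gnptab and Gnptg, subunits of the enzyme that makes this tag, rose by 0.16 and 0.17 (adjusted p = 0.0145 and 0.015 by edgeR), and the small receptor gene M6pr by 0.09 on the log2 scale (adjusted p = 0.0453). Gnptg and M6pr are named after their values were seen. The list had 3 called genes without the first lenvatinib library and without the second or the third untreated one. Gnptab did not pass without the first lenvatinib library (adjusted p = 0.0948) or the second untreated one (adjusted p = 0.0722), Gnptg without the second lenvatinib library (adjusted p = 0.0609) or the third untreated one (adjusted p = 0.0732), and M6pr without any of 4 libraries (adjusted p = 0.0505 to 0.209). With DESeq2 2 genes of the list were called, and Gnptab, Gnptg and M6pr did not pass (adjusted p = 0.0688, 0.0723 and 0.131).

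Genes of the proton pump and of the nutrient sensor on the lysosome surface were called in both directions. Of 19 V-ATPase subunits 4 fell, 3 rose and 12 did not pass, 36.8% called beside the 28.2% of all rows. The catalytic subunit gene Atp6v1a averaged 169 ± 1.79 CPM with lenvatinib and 202 ± 2.68 CPM in untreated cells (log2 fold change -0.26 ± 0.03, adjusted p = 1.74e-09; SD, n = 3 each). Atp6v1g1 fell by 0.19 (adjusted p = 6.14e-07), and Atp6v0e2 rose by 0.32 on the log2 scale (adjusted p = 9.42e-05). A further subunit gene, Atp6v0d2, stands among the osteoclast markers above and is not one of these 19. It fell at a low level, with 0.689 ± 0.286 CPM with lenvatinib and 4.32 ± 0.672 CPM in untreated cells (log2 fold change -2.63 ± 0.22, adjusted p = 1.82e-12). Of 27 genes of mTORC1, the kinase complex that restrains autophagy, and its scaffold, 8 fell, 4 rose and 15 did not pass. That is 44.4% called, beside the 28.2% of all rows. Rragd, a Rag GTPase that recruits mTORC1 and is a known target of TFEB, averaged 23.96 ± 1.81 CPM with lenvatinib and 13.8 ± 0.303 CPM in untreated cells (log2 fold change 0.80 ± 0.07, adjusted p = 2.19e-12, 1.74-fold higher). The sestrin genes, whose products restrain mTORC1, went opposite ways, with Sesn2 at 40.7 ± 1.25 CPM with lenvatinib and 30.1 ± 0.506 CPM in untreated cells (log2 fold change 0.43 ± 0.05, adjusted p = 5.86e-09) and Sesn3 at 83.3 ± 2.83 CPM with lenvatinib and 109 ± 2.63 CPM in untreated cells (log2 fold change -0.38 ± 0.04, adjusted p = 1.16e-11). In all 3 genes every library of one group lay beyond every library of the other.

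Other transcriptional regulators of these genes, 9 of them tested, held 3 falls, 2 rises and 4 genes that did not pass. That is 55.6% called, beside the 28.2% of all rows. Foxo1, a factor that induces autophagy genes in muscle, averaged 74.3 ± 1.41 CPM with lenvatinib and 65.3 ± 1.74 CPM in untreated cells (log2 fold change 0.18 ± 0.04, adjusted p = 0.000187; SD, n = 3 each), while Foxo4 averaged 50.4 ± 1.21 CPM with lenvatinib and 57.9 ± 1.87 CPM in untreated cells (log2 fold change -0.20 ± 0.04, adjusted p = 0.000245). Without the first or the third lenvatinib library, or without the first or second untreated one, 3 genes of this list were called.

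**Figure D5:**
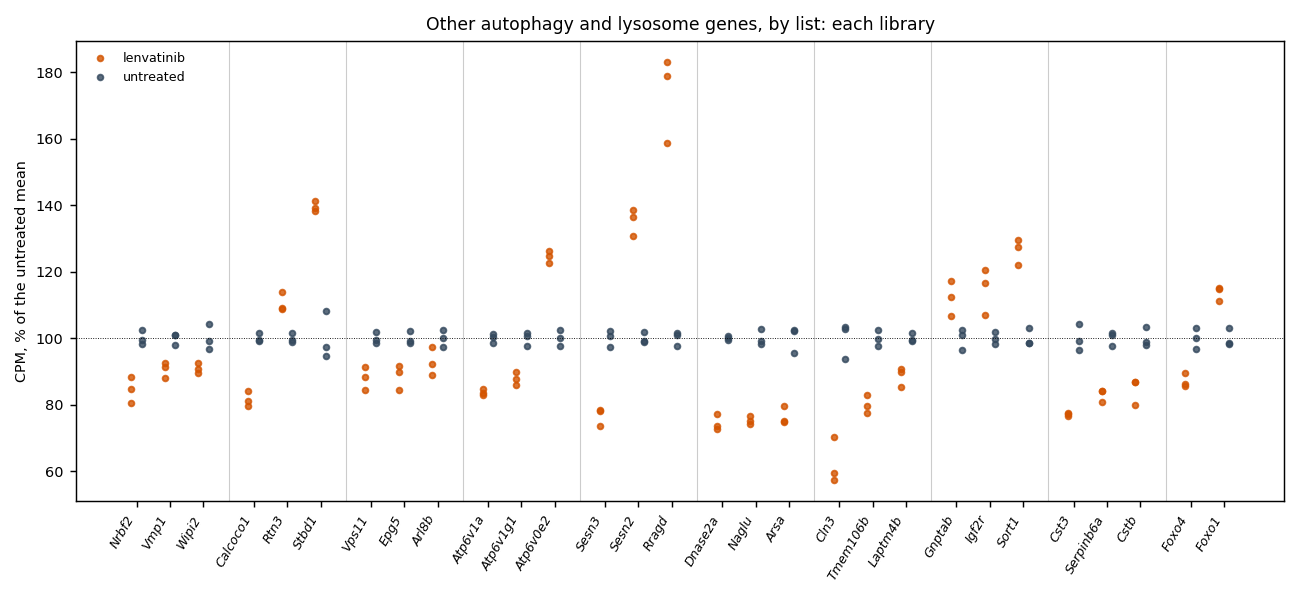
Each dot is 1 library's CPM as a percentage of the gene's untreated mean (y axis, not starting at 0) for up to 3 called genes per list with the smallest p, lists separated by lines, lenvatinib left of untreated. By group mean Rragd, Stbd1 and Sesn2 stand highest with lenvatinib and Cln3, Dnase2a and Naglu lowest.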

How the data were processed

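Whole-number read counts per gene row, not normalized, were used as the authors deposited them, 1 column per library, matched to samples by name. Per the labels' protocols reads were aligned with Hisat2 2.0.1, and the submitters' processing notes name HTSeq 0.6.1 and mm10. For the library kit, read filters and strand setting, the sources used here give nothing. Levels per kilobase use the feature lengths (other unit, bases) that the authors deposited. Of 51863 identifiers shared with GENCODE M21 (GRCm38), 3% match in both ends, and none of the 43 members does, although the notes name mm10, so positions are printed as deposited, without a build. Promoter windows are RefSeq's, on GRCm38.p6, and shared 50-base words come from GENCODE M21 transcripts.

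Rows were kept by filterByExpr of edgeR 4.0.16 (R 4.3.3; minimum count 10, minimum total 15), scaled with TMM (factors 0.9956 to 1.007) and tested with glmQLFit (robust) and glmQLFTest over all 6 libraries without covariates, Benjamini-Hochberg adjusted over all rows. The biological coefficient of variation was 3.6%. The code was tested on simulated data. Within groups the chi-square per degree of freedom was 2.78 to 5.6, above sampling noise. Libraries were counted singly, although this spread does not show that they came from separate cultures.

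The members, the lists and the tests were chosen with earlier results of these data known. All members are accounted for, called ones and those of at least 100 CPM by library, and up to 3 called genes with the smallest p per further list, of which 1 gene is counted but not reported here. Alternatives were other scalings, filters, thresholds, DESeq2 1.42.0, limma-voom (limma 3.58.1), a replicate block and leaving out each library, and, chosen after seeing the data, a minimum change of 1.2-fold.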

Additional observations from a re-analysis of the deposited data

How the results depend on the processing

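Over 15 alternatives the number of called members was 17 to 22 (21 as reported), with 14 to 18 lower and 3 to 5 higher. Called members of autophagy numbered 8 to 10 and of the lysosome 9 to 12. No called member changed direction. With a change of at least 1.2-fold, chosen after seeing the data, 3 members, 0 autophagy members, 3 lysosome members, 19 other pathway genes and 2040 of all rows were called. With DESeq2, and likewise with an adjusted p under 0.01, the other pathway genes held 13 rises, the fusion list 2 calls, the sorting list 2 and the regulator list 3. Leaving out 1 library gave 2 to 4 calls in the fusion list, 3 to 5 in the sorting list and 3 to 4 in the regulator list. The cause was not tested. Libraries of the same number did not deviate together (correlations 0.0217, -0.0782 and -0.00417), so no pairing by number was seen. With 3 libraries per group these values cannot tell whether libraries of the same number shared a culture or a preparation. With the replicate block 20 members, 63 other pathway genes and 4134 of all rows were called. Among members the block ended the call of Tfe3 (adjusted p = 0.0584), and no other member's call changed. Calls of Tfe3, Psap, Gabarapl2, Tpp1 and Scarb2 were lost under 1 or more alternatives.

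Members near 0 changed sign without passing the test. Neu1 was at 0.0020 with upper quartile scaling and at 0.00072 without a filter on low counts. Without single libraries, Neu1 was -0.021 to 0.0070, Atg7 -0.097 to 0.025, Becn1 -0.0019 to 0.033, Ctsf -0.18 to 0.016, Hexa -0.025 to 0.00016 and Lamp1 -0.019 to 0.0030 on the log2 scale. Gabarap and Ctsk, at 1 to 8 counts per library, had too few counts for a test, and why their rows are low was not tested. Gpnmb, at few counts, has a wide error. A filter of 5 CPM removes Gpnmb, so it has no value there.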
